A study of Mus musculus with 2 samples.

Results

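The matrix metalloproteinases (MMPs) and their tissue inhibitors (TIMPs) described here are 10 genes, the 7 proteases Mmp2, Mmp3, Mmp9, Mmp10, Mmp13, Mmp14 and Mmp23 and the 3 inhibitors Timp1, Timp2 and Timp3. Members were found as the probe sets whose annotation names a single gene of this list, which gave 22 of 20380 single-gene probe sets and 10 of 12393 genes. The study measured calvarial osteoblasts, bone-forming cells of the skull vault, on Affymetrix arrays, with 1 array for cells labelled Col1-Dlk1 (a Dlk1 transgene) and 1 for cells labelled wild type. Both came from C57Bl/6 pups aged 4 to 5 days, and each array holds RNA of 3 combined cultures. The Col1-Dlk1 cells were sorted for Dlk1, per the labels, and the labels do not describe the transgene's promoter. The sources used here do not say whether the wild-type cells were sorted, so genotype and sorting cannot be told apart.

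MMPs are zinc-dependent enzymes that cut proteins of the extracellular matrix. Most are made as inactive precursors and are activated when their propeptide is removed. TIMPs block the active site, and Timp2 also helps the membrane-anchored Mmp14 to activate Mmp2. In bone, these enzymes are known for clearing collagen from surfaces that are about to be resorbed or remodelled.

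Each value is a probe-set intensity on a linear scale. Differences are the log2(intensity + 10.96) of the Col1-Dlk1-labelled array minus that of the wild-type-labelled array. The pseudocount makes the folds of dim genes smaller than their plain ratios. A gene reached the level threshold when the brighter array read at least 42.8, the median of all values, and was called higher or lower at a difference of 2-fold or more. One array stands for each label, so there is no replicate, no test and no error, and a call compares these arrays only.

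Several facts of the whole series bear on every value below. Dlk1 itself, the gene of the transgene, read 26.5 on the Col1-Dlk1-labelled array and 306 on the wild-type-labelled array, against the label. The sources used here do not say whether its probe set reads the transgene, and every direction holds between the arrays as labelled. If the labels were exchanged, each direction and call below would turn around. Of 22 macrophage markers, 21 were higher by 2-fold or more on the Col1-Dlk1-labelled array, and their summed intensity was 25719 there against 351 on the other array. None was at 0, and Cd163 was below the level threshold on both. All 22 read at most 43.3 on the wild-type-labelled array, so most reached the level threshold only through the other array. Their part in the MMP and TIMP differences was not tested. Of 10 osteoclast markers, 8 were measured, 3 reached the level threshold and 2 were higher, Acp5 (2.00) and Ctsk (1.21). Acp5 read 50.6 against 4.45, and with so dim a wild-type reading any gene that reaches the level is called higher. The summed intensity of the 8 osteoclast markers was 834 against 388, and Nfatc1 differed by 0.89. For scale, 9.39% of all level-passing genes were called higher and 7.11% lower. All 12 neutrophil and mast cell markers missed the level threshold on both arrays, as were 9 of 10 endothelial ones. Of 11 fibroblast markers, 9 reached the level threshold, 1 was higher and 2 were lower. Of 11 measured osteoblast markers, 1 was higher (Msx2, 3.58), none was lower and 7 were below the level threshold. Calls this few are not results about these cell types. Col1a1, Col1a2 and Sparc read between 1462 and 7535 on these arrays. Alpl, Sp7, Ibsp, Dmp1 and Phex, which mark maturing osteoblasts and osteocytes, were below the level threshold on both. Sp7 lay close under it, at 38.2 and 40.1. Pth1r (29.4 against 1.81) and Dlx5 (20.0 against 6.91) were the other osteoblast markers below it. Of these 7, Pth1r, Dlx5 and Ibsp read higher on the Col1-Dlk1-labelled array, and the others read lower.

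The proteases and inhibitors lay mostly in one direction. Of the 10 genes, 5 were higher by 2-fold or more on the Col1-Dlk1-labelled array, namely Mmp13, Mmp23, Mmp10, Mmp3 and Timp2. Over all 6795 level-passing genes, 9.39% were called higher. Of the 10, 9 reached the level threshold and none was called lower, beside 7.11% of all level-passing genes. With a share that low and so few members, the absence of lower calls is not a result about them. Mmp2, Timp1, Timp3 and Mmp14 lay within 2-fold, and Mmp9 did not reach the level threshold. Of the 5, Mmp13, Mmp10 and Mmp23 reached it only through the Col1-Dlk1-labelled array. The median difference of all 10 genes was 0.86, and over all 12393 genes it was 0.01. In pooled RNA, more cells of a type and more transcript per cell cannot be told apart.

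**Figure D1:**
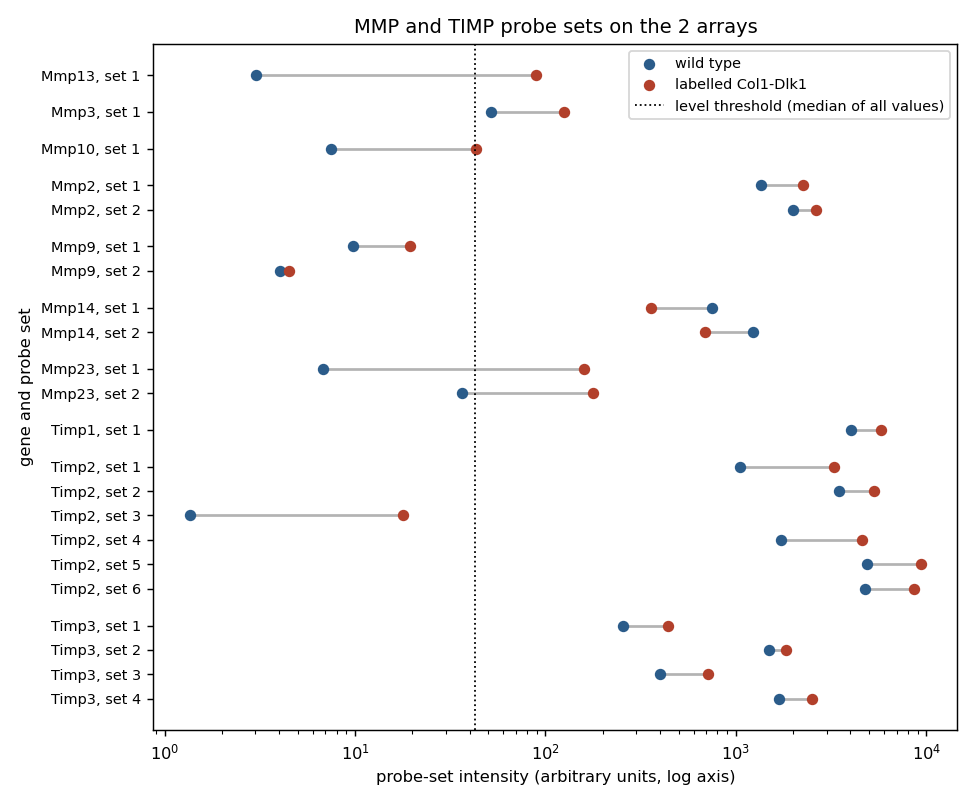
Intensity of each of the 22 probe sets (log axis, arbitrary units) on both arrays, joined by a line, with the level threshold of 42.8 dotted. Of the 22 probe sets, 20 read higher on the Col1-Dlk1-labelled array, and the 2 that read lower are both of Mmp14.

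Mmp13, Mmp3 and Mmp10 were among the higher genes, and all 3 lie in one run of MMP genes on chromosome 9. Mmp13, the collagenase that rodent osteoblasts and growth plate cartilage are known to make, read 89.7 on the Col1-Dlk1-labelled array and 3.01 on the wild-type-labelled array. Its difference of 2.85 was the largest of the 10 genes and ranked 109 from the top among 6795 level-passing genes. The plain ratio was 29.9 and the fold with the pseudocount 7.21, since the wild-type reading lies well under the pseudocount.

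Mmp3, or stromelysin 1, cuts proteoglycans and fibronectin and can activate other MMP precursors. It read 125 on the Col1-Dlk1-labelled array and 51.6 on the wild-type-labelled array, so both arrays exceeded the level threshold. The difference was 1.12, a fold of 2.17, at rank 529. Mmp10, or stromelysin 2, is its close relative. It read 43.1 against 7.49, a difference of 1.55 at rank 340. The brighter Mmp10 reading lies just above the level threshold of 42.8, so its call rests on a narrow margin. Each of these 3 genes has a single probe set, and no second reading of the same RNA exists for them.

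The sequences before the start sites of these genes are shown because these 3 genes of one run were all higher, with Mmp14, the gene that differed most in the other direction, for comparison. Each is the 250 bases upstream of a RefSeq transcript start on GRCm38.p6, read 5′ to 3′ on the gene's strand. Capitals mark matches on either strand to motifs known from MMP promoters. These are TGANTCA, which AP-1 (Fos and Jun dimers) binds, TGTGGT of RUNX factors and AGGAAG of ETS factors such as PEA3.
Mmp13, chr9:7272264-7272513, plus strand: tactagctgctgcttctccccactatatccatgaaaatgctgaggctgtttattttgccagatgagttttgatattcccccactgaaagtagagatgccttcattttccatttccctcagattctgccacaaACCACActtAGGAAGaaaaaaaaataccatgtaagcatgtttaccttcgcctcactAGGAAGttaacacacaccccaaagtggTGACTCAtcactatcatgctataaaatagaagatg
Mmp3, chr9:7445572-7445821, plus strand: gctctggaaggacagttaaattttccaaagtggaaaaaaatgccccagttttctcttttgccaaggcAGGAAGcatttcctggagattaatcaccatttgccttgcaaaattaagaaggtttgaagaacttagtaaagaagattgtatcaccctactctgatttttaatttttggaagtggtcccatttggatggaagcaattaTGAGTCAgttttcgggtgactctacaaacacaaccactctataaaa
Mmp10, chr9:7502092-7502341, plus strand: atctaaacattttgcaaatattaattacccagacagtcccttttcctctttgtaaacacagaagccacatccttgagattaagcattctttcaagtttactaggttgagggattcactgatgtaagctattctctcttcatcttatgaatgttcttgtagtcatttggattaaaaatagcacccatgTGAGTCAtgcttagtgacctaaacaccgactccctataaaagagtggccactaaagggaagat
Mmp14, chr14:54431348-54431597, plus strand: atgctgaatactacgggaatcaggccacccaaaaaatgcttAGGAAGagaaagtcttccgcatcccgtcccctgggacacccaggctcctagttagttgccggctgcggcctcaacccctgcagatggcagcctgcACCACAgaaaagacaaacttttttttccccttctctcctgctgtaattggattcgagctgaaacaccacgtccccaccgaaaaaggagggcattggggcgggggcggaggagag

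The AP-1 letters lie at 35 to 29 bases before the start of Mmp13, 46 to 40 before that of Mmp3 and 63 to 57 before that of Mmp10. Of 8 members with a RefSeq promoter entry, these 3 held the AP-1 motif, and the windows of Mmp14, Mmp23, Timp1, Timp2 and Timp3 held no match. Over 32851 promoter windows of the same length, 6.75% held it. Mmp23 and Timp2 were also called higher and had no AP-1 match. The window of Mmp12, another gene of the run called higher, is not described. The 3 genes were shown for their calls and the motifs were taken from MMP promoters, so the share tests nothing. The RUNX motif was in the windows of Mmp13 (118 to 113 bases before the start), Mmp14 and Mmp23, and in 14.05% of all windows. Mmp23 has windows for different start sites. Its match lies in the window at chr4:155653385-155653634 and not in that at chr4:155653291-155653540. The ETS motif was in those of Mmp13, Mmp3, Mmp14, Timp1 and Timp3, and in 29.5% of all. Mmp13 alone among the 8 held all 3 motifs, with 2 ETS matches. No matches overlapped within a member's window. A match describes the letters and says nothing of binding in these cells. Mmp2 and Mmp9 were not matched to an entry.

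In RefSeq gene order, chromosome 9 carries a run of 10 MMP genes, from Mmp13 through Mmp12, Mmp1b, Mmp3, Mmp1a, Mmp10, Mmp8, Mmp27 and Mmp20 to Mmp7. Of the 9 measured here, 4 reached the level threshold, namely Mmp13, Mmp3, Mmp10 and Mmp12. Mmp13, Mmp10 and Mmp12 reached it only through the Col1-Dlk1-labelled array, and with wild-type readings this dim any gene that reaches it is called higher, so their calls add nothing to the filter. Mmp3 reached it on both arrays. Mmp12 is the elastase that macrophages are known to make, and read 46.8 against 9.31 (1.51, or 0.93 with a pseudocount of 32). The other 5 did not reach the level threshold on either array, with Mmp8 at 8.80 against 2.23, Mmp1b at 11.6 against 13.6 and Mmp20 at 8.46 against 15.2. Mmp8, the collagenase of neutrophils, and the neutrophil markers were thus both dim. Of the 8 measured genes that flank the run, 5 reached the level threshold, and their differences ranged from -0.74 (Dcun1d5) to 0.36 (Tmem123). Casp4, below the threshold, read 19.9 against 1.21 (1.34).

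**Figure D2:**
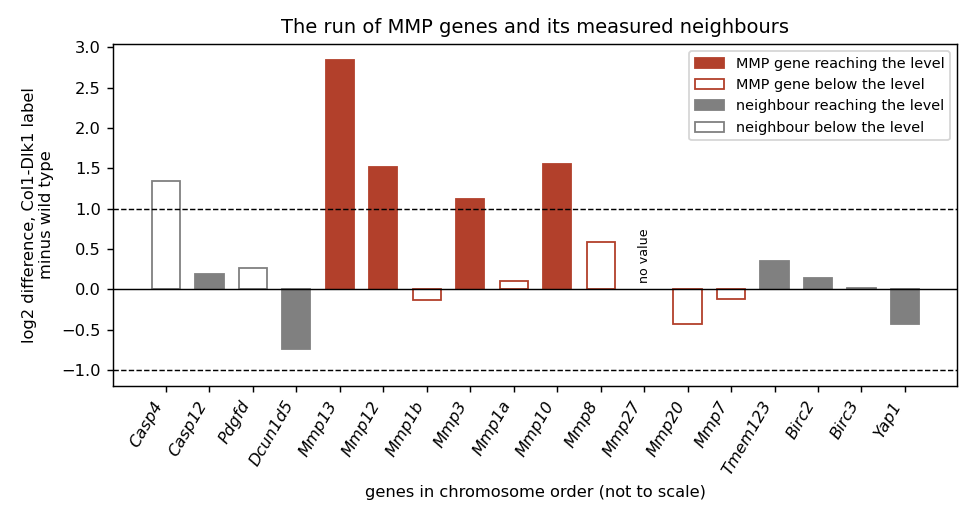
Log2 difference between the arrays for the run of MMP genes on chromosome 9 and 4 measured neighbours on each side, in gene order and not to scale, with dashed lines at 2-fold. The filled MMP bars are Mmp13, Mmp12, Mmp3 and Mmp10, of which only Mmp3 reached the level on both arrays, and the filled neighbour bars lie between -0.74 and 0.36.

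Mmp23, a protease anchored in the membrane by its propeptide and released when that is cut, was the other gene with a large difference. Its probe sets read 160 on the Col1-Dlk1-labelled array against 6.81 on the wild-type-labelled array, and 177 against 36.5. Both were higher, but by unequal amounts, with differences of 3.27 and 1.98. Their mean of 2.63 (168 against 18.1) ranked 129 from the top. The probe sets disagreed mainly in the wild-type reading, and this gap of 1.29 was the widest within any of the 6 members with several probe sets. For scale, the median gap between paired probe sets of 1 gene was 0.41 over all genes (12821 pairs) and 0.38 in the members (25 pairs).

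The gelatinases, which cut denatured collagen and basement membrane, were bright and close between the arrays, or dim. Mmp2, or gelatinase A, is made by stromal cells and fibroblasts. Its probe sets read 2242 against 1359 and 2627 against 1991 (label Col1-Dlk1 first), a mean difference of 0.56. Both were higher, and both within 2-fold. Mmp9, or gelatinase B, is known as the gelatinase of osteoclasts and neutrophils. Its probe sets read 19.5 against 9.74 and 4.52 against 4.03, all below the level threshold, so no difference can be called at any fold.

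Mmp14, the membrane-anchored collagenase that activates Mmp2, was the only one of the 10 genes that read lower on the Col1-Dlk1-labelled array. Its probe sets read 358 on that array against 747 on the wild-type-labelled array, and 685 against 1233. The differences were -1.04 and -0.84 and their mean -0.94, just short of the 2-fold rule. That placed Mmp14 at rank 544 from the bottom of the level-passing genes. Mmp14 therefore differed in the opposite direction from its substrate Mmp2 (0.56) and from Timp2 (1.11).

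All 3 inhibitors were higher on the Col1-Dlk1-labelled array, and 1 of them was called. Timp2, which both inhibits MMPs and links the Mmp2 precursor to Mmp14, has 6 probe sets. The brightest read 9371 against 4884 and 8572 against 4747, and the others read 5342 against 3465, 4594 against 1717, 3296 against 1058 and 17.9 against 1.36. All 6 read higher on the Col1-Dlk1-labelled array, with differences from 0.62 to 1.63. The mean was 1.11, a fold of 2.16 at rank 533, so Timp2 lay just inside the 2-fold rule as Mmp14 lay just outside it. Only 3 of the 6 probe sets reached 2-fold each. The dim probe set at 17.9 was among these, and without it the mean was 1.09.

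Timp3, the inhibitor that stays bound to the matrix and also blocks ADAM proteases, has 4 probe sets. They read 441 against 255, 1844 against 1499.5, 717 against 401 and 2520.2 against 1692. All 4 were higher, by 0.30 to 0.82, with a mean of 0.62. Timp1, a soluble inhibitor that many stromal cells and macrophages secrete, has 1 probe set. It read 5819 against 4010.2, a difference of 0.54. Timp1 and Timp3 were thus within 2-fold, at ranks 1434 and 1235.

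**Figure D3:**
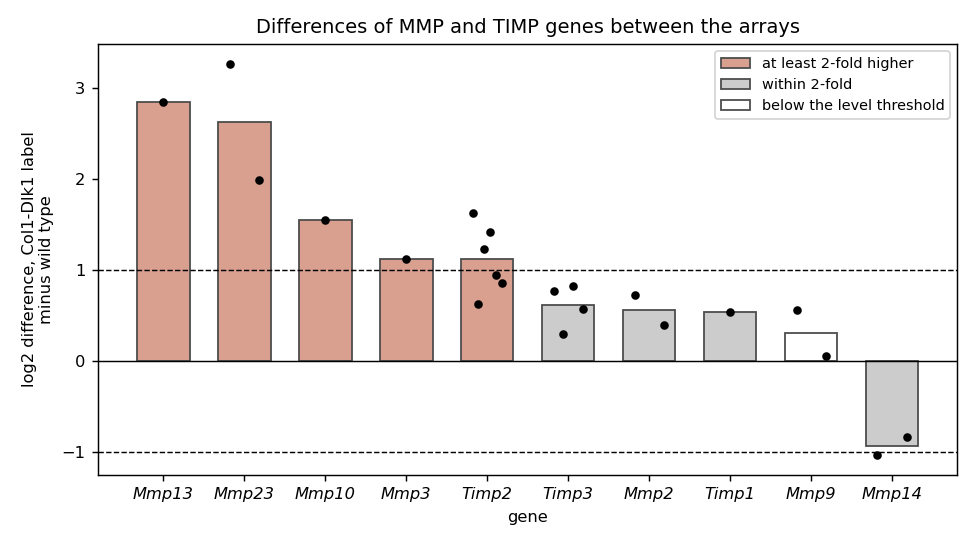
Log2 difference of each gene between the arrays (bars, the mean over probe sets) with single probe sets as points and dashed lines at 2-fold. The 5 genes called higher run from Mmp13 at 2.85 to Timp2 at 1.11, and Mmp14 at -0.94 is the only negative bar.

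By class, the level-passing proteases ranged from -0.94 to 2.85 and the inhibitors from 0.54 to 1.11. The 6 members with several probe sets each had them all in one direction. A 1.5-fold rule called 6 of the 10 higher, adding Timp3, beside 19.2% of level-passing genes, and 1 lower, Mmp14, beside 17%. A 3-fold rule left Mmp13 and Mmp23 as higher, beside 4.81% of level-passing genes, and none lower, beside 3%.

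The rest of the family was mostly too dim to call. Of 17 other MMP and TIMP genes, 12 were measured and 8 did not reach the level threshold. Besides Mmp12, the level-passing ones were Mmp19 (81.6 against 53.4, a difference of 0.52), the membrane-anchored Mmp16 (327 against 227, 0.50) and Mmp11, or stromelysin 3 (36.0 against 50.3, -0.38). Below the threshold, Mmp24 read 9.39 against 30.7 (-1.03), Timp4 10.3 against 24.5 (-0.74) and Mmp17 15.7 against 27.2 (-0.52), all lower on the Col1-Dlk1-labelled array but too dim to call. The family's 1 call outside the members was thus Mmp12.

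Genes that act with MMPs were called in both directions. Over all level-passing genes, 9.39% were called higher and 7.11% lower. The plasminogen cascade had 6 level-passing genes, the convertases and partners 10, and the ADAM and ADAMTS proteases 12. The factors and cytokines had 13 and the matrix substrates 13. In lists this small, a single call is not a result about the list. In the plasminogen cascade, which activates several MMP precursors through plasmin, 9 of 11 genes were measured, none was higher and 1 was lower. This was Plaur, the receptor of urokinase, at 159 against 328 (-1.001), which a loess scaling moved to -0.99, short of the rule. Serpinb2, a urokinase inhibitor, differed by -0.66, Plat, the tissue plasminogen activator, by 0.23 and the plasminogen receptor gene Plgrkt by -0.20. The list median over level-passing genes was -0.03, beside 0.02 for all level-passing genes.

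Among activating convertases and cell-surface partners, 15 of 16 genes were measured, 2 were higher and none was lower, with a level-passing median of 0.60. Pcsk6, a convertase that cuts proproteins at basic residues, read 88.2 against 37.5 (1.03), and Lrp1, the endocytic receptor that clears MMPs and TIMPs, read 1158 against 573 (1.002). Median centring of the arrays left both short of the rule, at 0.97 and 0.94. Cd44, a hyaluronan receptor that can hold MMPs at the surface, differed by 0.83 and the integrin subunit gene Itgb1 by 0.82. Reck, a membrane-anchored MMP inhibitor, differed by 0.81, and Furin by -0.03. Reck and Furin were chosen after their values were seen.

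Of the related ADAM and ADAMTS proteases, 16 of 20 were measured, 3 were higher and none was lower, with a level-passing median of 0.50. Adam8, which leukocytes and osteoclasts express, read 1014 against 22.7 (4.93), Adam23 read 52.6 against 3.39 (2.15) and Adam15 107 against 41.0 (1.19). All 3 reached the level threshold only through the Col1-Dlk1-labelled array. With a wild-type reading as dim as that of Adam23, any gene that reaches the level is called higher. The aggrecanase gene Adamts5 differed by 0.99. The level-passing median of the macrophage markers was 5.07, and their part in the Adam8 difference was not tested.

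Of the transcription factors and cytokines known to act on MMP genes, 16 of 19 were measured, 5 were higher and 1 was lower. The AP-1 subunit genes did not lie in one direction, with Fos at 3699 against 581 (2.65) and Fosl1 at 89.7 against 301 (-1.63). The cytokine genes Tnf (242 against 1.71, 4.32) and Il1b (132 against 29.3, 1.83), both known inducers of Mmp13 and Mmp3, were called higher. Any gene that reaches the level from a wild-type reading as dim as that of Tnf is called higher. Whether these cytokines had a part in the Mmp13 and Mmp3 differences was not tested. The part of macrophages in the cytokine differences was not tested either. The other higher genes, Tgfb1 (1.06) and the NF-kB subunit gene Rela (1.03, or 0.97 after median centring), lay close to the rule. Jun, the partner of Fos in AP-1, differed by -0.35. These 3 were chosen after their values were seen.

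Of the matrix proteins that MMPs cut, 14 of 15 were measured, 1 was higher and 1 was lower. Tnc, or tenascin C, read 5439 against 1201 (2.17), and Postn, or periostin, read 609 against 4232 (-2.78). The basement membrane collagen genes Col4a2 and Col4a1 differed by 0.88 and 0.86. Counting Col4a2 and Col4a1, 11 level-passing substrates lay within 2-fold.

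**Figure D4:**
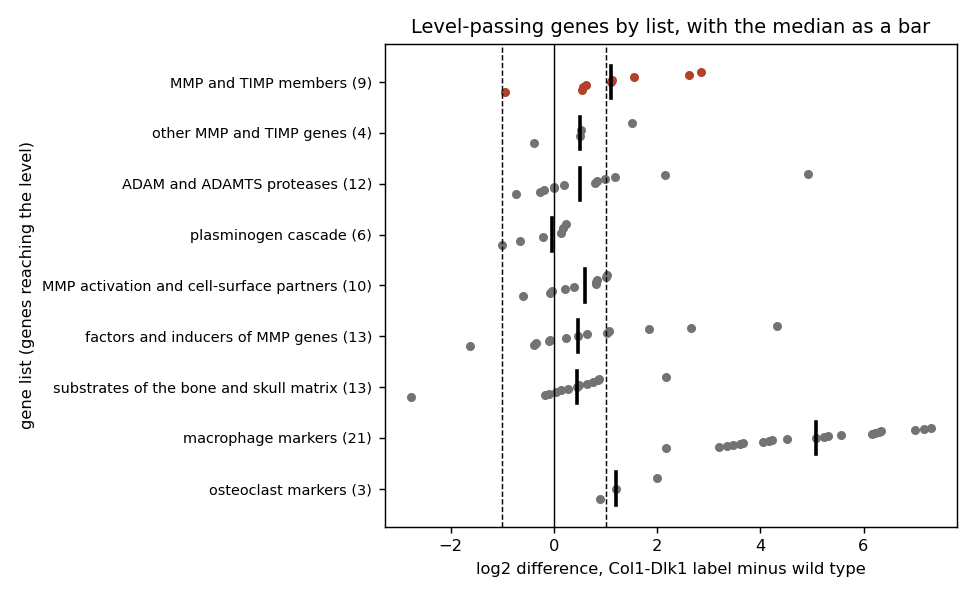
Log2 differences of level-passing genes (points) by list, with the list median as a bar, the number of genes in brackets and dashed lines at 2-fold. The MMP and TIMP points run from -0.94 to 2.85, and the macrophage marker points from 2.17 to 7.32, so the ranges overlap, with medians of 1.11 and 5.07.

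The values of the dim genes moved with the pseudocount. Across 10 ways of processing, Mmp13 ranged from 1.80 to 4.50, Mmp23 from 1.96 to 3.31 and Mmp10 from 0.93 to 2.38. The lowest of these came with a pseudocount of 32 and the highest with a pseudocount of 1. The bright genes moved less, with Mmp2 between 0.40 and 0.72, Timp1 between 0.48 and 0.73, Timp3 between 0.56 and 0.70 and Mmp14 between -0.999 and -0.84. Each of the 10 genes kept its sign in every one of these in which it had a value, which was 9 of the 10 ways for Mmp9.

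**Figure D5:**
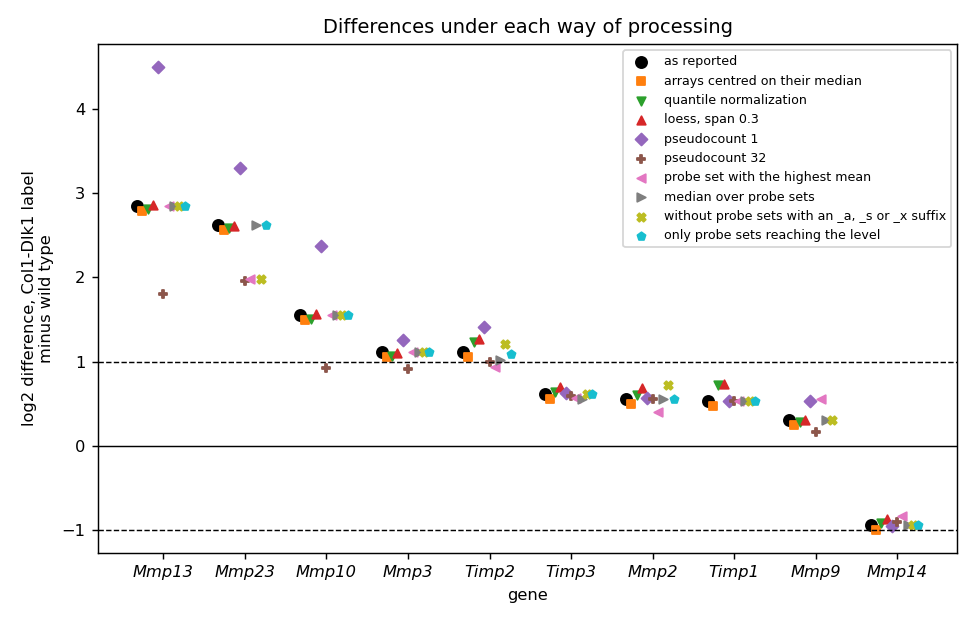
Log2 difference of each gene (horizontal axis) under 10 ways of processing (markers), with dashed lines at 2-fold. Mmp13 and Mmp23 stay above 1 throughout, Mmp10, Mmp3 and Timp2 cross it, and Mmp14 stays between -0.999 and -0.84.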

How the data were processed

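The authors deposited linear probe-set intensities. The submitters' processing notes name Affymetrix Expression Console 1.1.1, and the sources used here give no algorithm, background correction or detection calls. The 2% trimmed means were 150.06 (Col1-Dlk1) and 150.07 (wild type), so the arrays share a scale by that measure. Their median intensities were 43.8 (Col1-Dlk1) and 41.5 (wild type), and centring on the median changed some calls. Probe sets were joined to GEO's platform annotation, and symbols were updated by gene ID (20351 of 20380 single-gene probe sets matched RefSeq). Log2(intensity + 10.96) was averaged over the probe sets of a gene. The pseudocount is the 25th percentile of all values. Printed intensities of genes with several probe sets are these averages turned back to the linear scale. No depth exists for arrays, and 1 array per label limits the precision.

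All 10 members are named, with up to 4 level-passing genes of largest difference from each of 12 other lists and, where described, other measured MMP or TIMP genes. Exceptions are identified. Members and lists were chosen with earlier results of these data known. Protein sequences were not used here. The call rule was tested on simulated data. Python 3.11.15, numpy 2.4.6, pandas 2.3.3, statsmodels 0.14.6 and matplotlib 3.10.9 were used.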

Additional observations from a re-analysis of the deposited data

How the results depend on the processing

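The count of 5 higher genes became 2 (Mmp13 and Mmp23) with a pseudocount of 32, beside 6.89% of all level-passing genes. It also became 2 with a 3-fold rule, beside 4.81%. The count of lower genes became 1 (Mmp14) with a 1.5-fold rule, beside 17%. Under the other 11 of 13 alternatives, 4 to 6 genes were called higher, beside 7.62% to 19.2% of all genes that the setting kept. Mmp10 dropped out with median centring, quantile normalization and a level filter at the 60th percentile, and Timp2 when the brightest probe set stood for the gene. Mmp13 and Mmp23 were called in all 14 ways, which all use the same arrays. Both reached the level threshold only through the Col1-Dlk1-labelled array. With a wild-type reading as dim as that of Mmp13, any gene that reaches the level is called higher. Its calls under a level filter therefore add nothing to the filter. The median over level-passing members ranged from 0.80 to 1.26. Leaving out probe sets with an _a, _s or _x suffix, or those below the level, was chosen after seeing the data, and 5 genes were higher under each. Movement was judged against 0.41, the median gap between probe sets of a gene. Readings such as 3.01 for Mmp13 have no stated distance from background, so their ratios are imprecise. No paired analysis was possible because each label has 1 array, and leaving out a replicate was not possible either.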
